A study of Mus musculus with 62 samples.

Results

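The 6 sarcomeric myosin heavy chain genes Myh1, Myh2, Myh3, Myh4, Myh7 and Myh8 of skeletal muscle were followed through the course of melanoma-induced wasting in mouse gastrocnemius. They were picked by gene symbol from a table of 47643 symbols. The rule itself uses no measured value, but the members were chosen with earlier results of these data known. All 6 were among the 12364 genes with enough signal to be tested. Myh4 was the most abundant chain in every library. At 8 weeks after injection of melanoma cells that cause cachexia, Myh1 was 1.67-fold its level in mock-injected mice. Its mean share of the 6 chains was then 16.2% against 9.35%, while the mean share of Myh4 was 76.1% against 83.9%. Against mock-injected mice the Myh1 level passed the test on the deposited values but not after rescaling of the libraries by median ratios, where Myh4 was lower instead. Against mice with melanoma cells that do not cause cachexia, Myh1 passed at 8 weeks on both scales, with log2 differences of 0.92 and 0.51. None of the share differences passed after adjustment. The embryonic chain Myh3 and the perinatal chain Myh8 did not pass the test against mock-injected mice at any week.

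Each thick filament of the sarcomere is built from myosin molecules, and each molecule holds a pair of heavy chains that carry the ATPase and set the shortening speed of the fibre. Adult mouse fibres are classed by the chain they make: Myh4 marks type IIb fibres, the fastest and most glycolytic, Myh1 marks type IIx, Myh2 marks type IIa, which are fast and oxidative, and Myh7 marks slow type I fibres. Myh3 is the embryonic and Myh8 the perinatal chain, both of which give way to adult chains after birth and can return in regenerating fibres. The gastrocnemius of the mouse is a mainly fast muscle with a small slow region.

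The mice were female and 2 months old when melanoma cells were injected. Mice labelled CAC received melanoma cells that cause cachexia, the wasting of muscle and fat seen with some tumours. Mice labelled NCAC received melanoma cells that do not cause it, and mice labelled Con were mock injected. Muscles were collected 2, 4, 6 and 8 weeks later. Each group at each week had 5 libraries, except CAC at 8 weeks, which had 7, so the series held 22 CAC, 20 NCAC and 20 Con libraries. The series description gives the strain as NCI Ath/nude and the sample labels give C57BL6/J, and the sources used here do not settle which is right. A nude host would lack most T cells, a limit of the model to keep in view. The labels call the libraries biological replicates. Each library title carries its own number, read here as a mouse number, but the labels do not otherwise tie libraries to animals. These numbers run without a break within each group and week, except in CAC at 8 weeks, where some are skipped. The reason is not given in the sources used here, so the CAC libraries at 8 weeks may be only part of the mice numbered for that group. The p-values measure the spread between these libraries.

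All of these genes except Myh7 stand in a row on the forward strand of chromosome 11, in the order Myh3, Myh2, Myh1, Myh4 and Myh8, followed by Myh13, a chain known from eye muscles. In the GENCODE M21 annotation of GRCm38, Myh3 spans chr11:67078300-67102291, Myh2 chr11:67171027-67197517, Myh1 chr11:67200052-67224575, Myh4 chr11:67238029-67260446 and Myh8 chr11:67277124-67308634. Myh7 lies apart, on the reverse strand at chr14:54970684-54994626, beside Myh6, the cardiac alpha chain, at chr14:54941921-54966927. The noncoding gene Myhas overlaps Myh1, 9430073C21Rik overlaps Myh2 and Mhrt overlaps Myh7, each on the opposite strand.

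Promoter sequences were compared because these genes are close neighbours on chromosome 11 yet differ in level. The RefSeq promoter windows (GRCm38.p6, 250 bases before to 50 after each gene start) of Myh1, Myh2, Myh4 and Myh8 shared short strings that the windows of Myh3 and Myh7 lacked. The segments that hold them are given on the forward strand. Capitals mark a 15-base string, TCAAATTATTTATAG, and a 14-base string, TTCTAATTATATCC, which were found by comparing these promoters with each other and were then searched on both strands.
Myh2: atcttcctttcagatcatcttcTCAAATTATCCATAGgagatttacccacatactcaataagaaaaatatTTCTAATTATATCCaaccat
Myh1: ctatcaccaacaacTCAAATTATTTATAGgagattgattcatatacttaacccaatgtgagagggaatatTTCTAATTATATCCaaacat
Myh4: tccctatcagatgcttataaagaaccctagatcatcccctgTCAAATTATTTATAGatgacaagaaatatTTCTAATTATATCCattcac
Myh8: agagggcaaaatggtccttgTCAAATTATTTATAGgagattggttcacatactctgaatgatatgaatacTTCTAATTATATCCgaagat
The segments are chr11:67170832-67170921 for Myh2, chr11:67199872-67199961 for Myh1, chr11:67237584-67237673 for Myh4 and chr11:67277000-67277089 for Myh8. The 15-base string occurred in 3 of 32851 mouse promoter windows (0.00913%), those of Myh1, Myh4 and Myh8. Myh2 differed from it by T10C and T11C, counted from 1 at the string's 5′ end. The 14-base string occurred in 4 windows (0.0122%), those of all 4 genes shown, and in neither Myh3, Myh7 nor Myh13. The strings were separated by 41 bases in Myh1, 33 in Myh2, 35 in Myh8 and 14 in Myh4. These are descriptions of the letters and not evidence of a binding site. Myh1 and Myh4, which both hold the strings with no mismatch, had log2 differences of 0.74 and -0.14 in CAC against Con at 8 weeks.

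Levels are given as TPM, a share of each library's transcripts that is adjusted for gene length and scaled to a fixed total. Libraries were estimated to hold 39.6 to 48.3 M reads each. In its lowest library Myh3 rested on about 107 reads (a counting error of 9.67%) and Myh8 on 82 (11.04%), against 103865 for Myh1 and 883458 for Myh4. Muscle fibre markers (Ckm, Acta1, Des, Ttn, Mb and Casq1) summed to 52362 to 80462 TPM over the 8-week libraries, so the libraries carry the markers of the labelled tissue. The transcripts of the mitochondrial genome took 33.5% ± 3.02 of TPM in Con and 32.2% ± 3.08 in NCAC at 8 weeks (SD, n = 5 each), but 24.2% ± 3.53 in CAC (SD, n = 7). The median of all tested genes was itself higher in CAC than in Con, by 0.09, 0.17, 0.28 and 0.36 on the log2(TPM + 1) scale at 2, 4, 6 and 8 weeks, and higher than in NCAC by 0.12, 0.17, 0.37 and 0.37. Each chain is therefore also given after rescaling the libraries by median ratios, which lowered these medians by 0.32 at 8 weeks against Con and by 0.34 against NCAC. Of the genes called against Con at 8 weeks, 92.2% were higher as deposited (8069 against 686 that were lower). On rescaled values this share was 54.2% (3073 against 2598). Against NCAC the shares were 93.4% and 54.9%. In whole muscle, fewer fibres of a type and less RNA per fibre cannot be told apart.

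The 6 chains together made up 1.39 to 1.71% of library TPM in the group means. Over the 62 libraries Myh4 ran from 7846 to 17976 TPM, Myh1 from 829.5 to 3477, Myh2 from 484 to 1512, Myh7 from 110.1 to 548, Myh8 from 0.352 to 111 and Myh3 from 0.916 to 9.06. The order Myh4, Myh1, Myh2, Myh7, Myh8, Myh3 held in 54 libraries. In 7 libraries Myh8 fell below Myh3, and in 1, NCAC replicate 4 at 8 weeks, Myh2 (1403 TPM) stood above Myh1 (1107 TPM). Only Myh4 was separated from its neighbour in the order by its range over all libraries, while the ranges of Myh1 and Myh2, of Myh2 and Myh7, of Myh7 and Myh8, and of Myh8 and Myh3 overlapped.

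Among the 20 control libraries the chains differed in how steady they were. The highest control library exceeded the lowest 1.66-fold for Myh4, 1.97-fold for Myh2, 2.30-fold for Myh1, 2.91-fold for Myh7 and 3.76-fold for Myh3. For Myh8 that ratio was 163-fold, and 1 control library lay far below the rest.

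**Figure D1:**
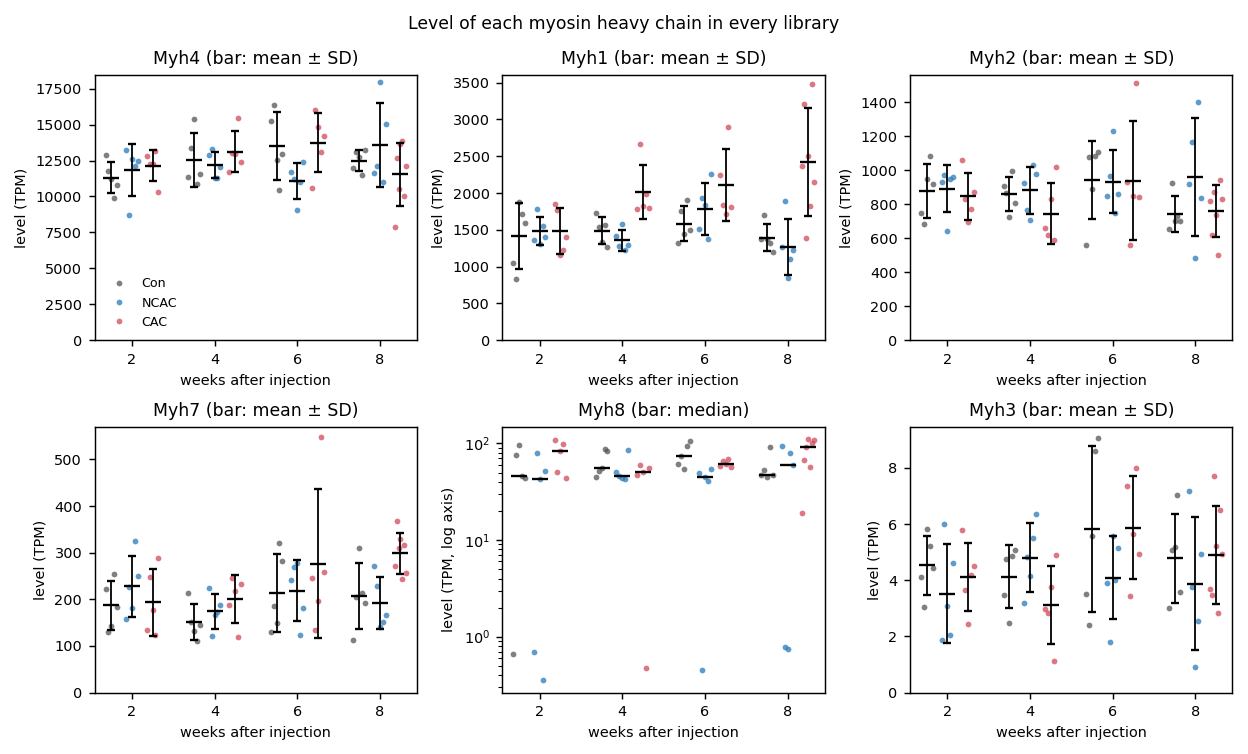
Level of each chain in TPM (vertical axis, log scale for Myh8 only) in every library against weeks after injection, with Con in grey, NCAC in blue and CAC in red; bars give the mean ± SD, or the median for Myh8. At 8 weeks 6 of the 7 CAC libraries lie above the highest Con library for Myh1, and 7 Myh8 points lie below 1 TPM.

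Myh1, the IIx chain, had the lowest adjusted p of the 6 chains in CAC at 8 weeks on the deposited values, while after rescaling Myh4 had it. At 8 weeks the CAC libraries held 1392 TPM at the lowest, 2365 at the median and 3477 at the highest. The Con libraries held 1369.8, 1702, 1369, 1324 and 1203 TPM, and the NCAC libraries 1268, 1886, 849, 1107 and 1231 TPM. All CAC libraries but 2 lay above the highest NCAC library, and the lowest CAC library lay inside the Con range. Mean Myh1 was 2418 ± 736 TPM in CAC (SD, n = 7), 1394 ± 186 in Con and 1268 ± 382 in NCAC (SD, n = 5 each). The level was 1.67-fold that of Con, a log2 difference of 0.74 (SE 0.180, 95% interval 0.38 to 1.104, adjusted p = 0.000331 in limma, Benjamini-Hochberg over all tested genes), with 6 of 7 CAC libraries above the Con mean. Against NCAC it was 1.89-fold, a log2 difference of 0.92 (SE 0.180, adjusted p = 2.0e-05 in limma), with 7 of 7 above the NCAC mean. After rescaling, the difference was 0.35 against Con (adjusted p = 0.0892) and 0.51 against NCAC (adjusted p = 0.0131), so only the second passed the 0.05 threshold. Relative to the median gene of the same comparison Myh1 stood 0.39 higher against Con, above 87.2% of tested genes, and 0.54 higher against NCAC, above 92.4%.

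At 2, 6 and 8 weeks the Myh1 levels of CAC overlapped with those of both other groups, and at 4 weeks they did not. CAC held 1788, 2663, 1823, 1990.35 and 1802 TPM, Con 1726, 1544, 1331, 1559 and 1271, and NCAC 1418, 1286, 1580.2, 1224 and 1294. No CAC library fell to the range of either other group. Groups did not overlap, with CAC either higher or lower, for 16.8% of tested genes against Con and 14.3% against NCAC. The log2 difference was 0.55 against NCAC (SE 0.194, adjusted p = 0.0408 in limma) and 0.43 against Con (SE 0.194, adjusted p = 0.0916). Rescaled, it was 0.35 (adjusted p = 0.234) and 0.23 (adjusted p = 0.420). Without CAC replicate 2, the highest of its group, the deposited values gave 0.45 against NCAC (adjusted p = 0.236). At 6 weeks Myh1 averaged 2105 ± 490 TPM in CAC, 1585 ± 241 in Con and 1781 ± 353 in NCAC (SD, n = 5 each). The differences of 0.39 (adjusted p = 0.0770) and 0.24 (adjusted p = 0.277) did not pass, and the second was -0.19 after rescaling. At 2 weeks the means lay within 1412 and 1483 TPM in the 3 groups.

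Myh4, the IIb chain and the bulk of the pool, was not higher in CAC at 8 weeks. At 8 weeks CAC ran from 7846 through a median of 12136 to 13874 TPM. Con held 11962.5, 13075, 12742, 11499 and 13217 TPM, and NCAC 11657, 12150.1, 17976, 10997 and 15048 TPM. The CAC range covered the whole Con range and reached lower, and the SD of CAC was 2174 TPM against 740.5 in Con. The log2 difference from Con was -0.14 (SE 0.121, adjusted p = 0.303 in limma) as deposited and -0.53 (adjusted p = 0.00154) after rescaling. From NCAC it was -0.23 (adjusted p = 0.0779) and -0.65 (adjusted p = 0.000185). Myh4 thus stood 0.50 below the median gene against Con, where only 8.99% of tested genes stood lower, and 0.61 below it against NCAC. At 6 weeks CAC averaged 13744 ± 2061 TPM and NCAC 11077 ± 1235 (SD, n = 5 each), with 4 of 5 CAC libraries above the highest NCAC library. That difference of 0.30 (SE 0.130, adjusted p = 0.0352 in limma) turned to -0.12 (adjusted p = 0.528) after rescaling. The differences from Con at 2, 4 and 6 weeks were 0.10, 0.07 and 0.03 as deposited, none past the threshold, and 0.01, -0.12 and -0.29 rescaled, so the sign at 4 and 6 weeks depends on the scaling.

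Myh2, the IIa chain, did not differ between CAC and Con beyond the spread of the libraries. At 8 weeks it averaged 760.2 ± 154 TPM in CAC (SD, n = 7) and 743 ± 105 in Con (SD, n = 5), with libraries overlapping. The difference was 0.02 (adjusted p = 0.948 in limma) as deposited and -0.38 (adjusted p = 0.105) rescaled. NCAC held 918, 1167, 484, 1403 and 835 TPM at 8 weeks, a range that covered every CAC and Con library of that week. Against NCAC the difference was -0.28 (adjusted p = 0.185) as deposited and -0.69 (adjusted p = 0.00334) after rescaling. Without NCAC replicate 3, which held 484 TPM, it was -0.51 (adjusted p = 0.0158) on the deposited values.

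Myh7, the slow chain, was higher in CAC at 8 weeks as deposited, by a smaller margin. CAC ran from 243 through a median of 309.5 to 368 TPM. Con held 112, 205, 309.5, 214 and 193 TPM, and NCAC 272, 229, 142, 151 and 167 TPM. Every CAC library lay above the Con mean of 207 TPM, while Con replicate 3 and NCAC replicate 1 lay inside the CAC range. The level was 1.503-fold that of Con, a log2 difference of 0.59 (SE 0.260, 95% interval 0.07 to 1.11, adjusted p = 0.0404 in limma). Against NCAC the difference was 0.67 (SE 0.260, adjusted p = 0.0198). Rescaling left 0.19 (adjusted p = 0.557) and 0.26 (adjusted p = 0.424), neither past the threshold. Fitting the replicate number as a block gave 0.61 against Con with an adjusted p of 0.0648 in limma. Leaving out CAC replicate 2, 3, 4 or 6 or Con replicate 1, 2 or 5 also took the difference from Con past 0.05, with Con replicate 1 moving it most, to 0.39 (adjusted p = 0.197). At 4 and 6 weeks the deposited differences from Con were 0.40 (adjusted p = 0.279) and 0.30 (adjusted p = 0.368), and the highest Myh7 of the series, 548 TPM, was in CAC replicate 4 at 6 weeks.

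Myh8, the perinatal chain, fell into separate ranges over the libraries. In 55 libraries it lay between 19.1 and 111 TPM, and in 7 it lay between 0.352 and 0.780 TPM. The low range held 1 of the 20 Con libraries, 5 of the 20 NCAC libraries and 1 of the 22 CAC libraries, and whether the groups differ in this was not tested. The 7 were Con replicate 1, NCAC replicate 1 and NCAC replicate 4 at 2 weeks, CAC replicate 4 at 4 weeks, NCAC replicate 2 at 6 weeks, and NCAC replicates 2 and 3 at 8 weeks. Myh13, the next gene along the chromosome, was low in the same libraries, at 0.134 to 1.28 TPM against 5.64 to 41.8 TPM in the other 55. Myh3 ranged from 0.916 to 4.13 TPM in the 7 and from 2.41 to 9.06 TPM in the others, so its ranges overlapped. As a share of the summed chains, Myh8 left a further gap within the 55 libraries, with none between 0.411 and 0.567%. At 8 weeks CAC replicates 3, 4, 6 and 7, NCAC replicates 1 and 4 and Con replicate 4 lay above this gap. Whether the groups differ in this was not tested.

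At 8 weeks Myh8 in CAC ran from 19.1 to 111 TPM with a mean of 79.7 ± 33.6 (SD, n = 7), Con averaged 56.6 ± 19.4 TPM (SD, n = 5), and NCAC held 94.4, 0.780, 0.753, 79.4 and 59.2 TPM. The difference of CAC from NCAC was 2.07 on the log2 scale (SE 0.957, adjusted p = 0.0490 in limma), and 1.69 (adjusted p = 0.150) after rescaling. Leaving out NCAC replicate 2 alone gave 1.25 (adjusted p = 0.255), and NCAC replicate 3 alone gave 1.25 (adjusted p = 0.257). The replicate block gave 1.84 (adjusted p = 0.121). With both low libraries out, the 3 NCAC libraries left averaged 77.7 ± 17.7 TPM (SD, n = 3) and the difference was -0.11. That last value is a description with no test, because the libraries were left out for their Myh8 level after the data were seen. The same step moved the CAC to NCAC difference from 2.46 to 0.36 at 2 weeks and from 1.40 to 0.39 at 6 weeks, neither of which had passed the threshold. Against Con at 8 weeks Myh8 differed by 0.37 (adjusted p = 0.743) as deposited and by -0.02 rescaled.

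**Figure D2:**
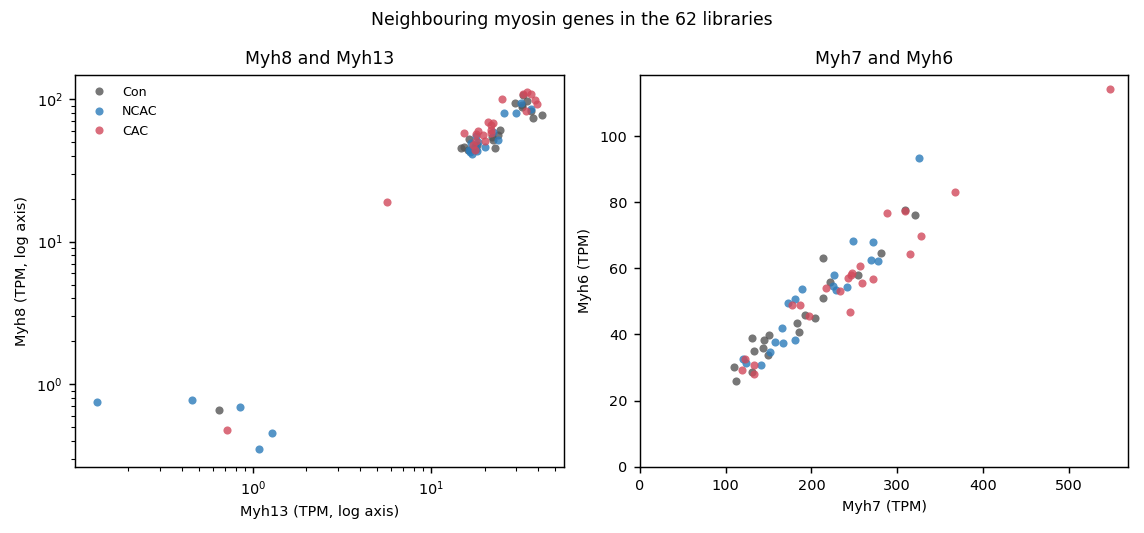
Level in TPM of neighbouring myosin genes in the 62 libraries, Myh8 against Myh13 on log axes at left and Myh6 against Myh7 on linear axes at right, with 1 point per library coloured by group. The 7 libraries with Myh8 under 1 TPM form a separate cloud at low Myh13, and Myh6 follows Myh7 through all 3 groups.

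Myh3, the embryonic chain, stayed near the bottom in every group. At 8 weeks it averaged 4.91 ± 1.75 TPM in CAC (SD, n = 7), 4.77 ± 1.58 in Con and 3.87 ± 2.37 in NCAC (SD, n = 5 each), with overlapping libraries. The log2 difference was 0.02 against Con (adjusted p = 0.947 in limma) and 0.38 against NCAC (adjusted p = 0.208). The first was -0.30 and the second 0.06 after rescaling.

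Counted over the 6 chains, CAC against Con gave 0 called by limma at 2, 4 and 6 weeks, where 0.283%, 25.3% and 57.2% of all tested genes were called. At an unadjusted p under 0.05 these weeks gave 0, 1 and 1 chains, Myh1 in both cases. At 8 weeks 2 were higher (Myh1 and Myh7) and 0 lower, beside 65.3% higher and 5.55% lower (70.8% called) over all tested genes. Rescaled, 0 were higher and 1 (Myh4) lower, beside 24.9% and 21.01%. The median difference of the 6 chains at 8 weeks was 0.19, below the 0.36 of all tested genes. For CAC against NCAC at 8 weeks it was 0.53, above the 0.37 of all tested genes. That median counts Myh8 at 2.07, which was -0.11 with the NCAC libraries of low Myh8 left out. It would be lower without those libraries.

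CAC against NCAC, which shares its CAC libraries with the first comparison, gave 0 of 6 at 2 weeks (1.17% of tested genes called, and 1 chain at an unadjusted p under 0.05 in limma). It gave 1 at 4 weeks (Myh1, where 19.7% of tested genes were called, 18.1% higher), 1 at 6 weeks (Myh4, where 68.7% were called, 64.1% higher) and 3 at 8 weeks (Myh1, Myh7 and Myh8, where 72.3% were called, 67.5% higher and 4.80% lower). All of these chains were higher in CAC as deposited. Rescaled, 0 chains were called at 2, 4 and 6 weeks, and at 8 weeks Myh1 was higher and Myh2 and Myh4 lower. The rescaled shares over all tested genes were 0.364, 3.22, 21.6 and 25.1% higher and 0.0809, 5.01, 20.2 and 20.6% lower at 2, 4, 6 and 8 weeks. NCAC against Con gave 0 of 6 at all 4 weeks, where 0% of tested genes were called. In that comparison an unadjusted p under 0.05 in limma was reached by 471, 224, 909 and 139 genes at 2, 4, 6 and 8 weeks. Myh4 at 6 weeks (log2 difference -0.28, unadjusted p = 0.0390, adjusted p = 0.675) was the 1 chain among them.

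**Figure D3:**
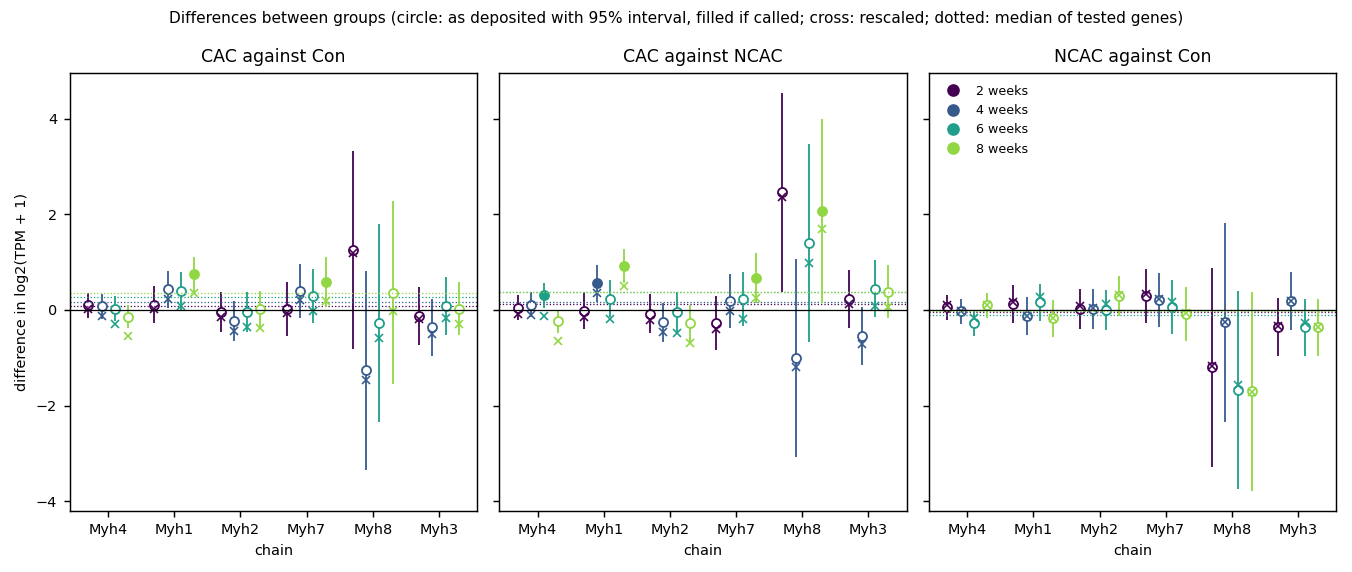
Difference in log2(TPM + 1) between groups for each chain (horizontal axis) and week (colour), with circles and 95% intervals for the deposited values, filled where the adjusted p was under 0.05, crosses for rescaled values, and dotted lines at the median of all tested genes. Myh1 at 8 weeks stands above the dotted line in both CAC panels, Myh4 below it, and the intervals of Myh8 are the widest.

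No chain passed the F test of limma for a difference from Con that varied across the 4 weeks. For CAC against Con the adjusted p was 0.283 for Myh1, 0.535 for Myh8, 0.662 for Myh4 and Myh7, 0.812 for Myh3 and 0.894 for Myh2, where 12.1% of tested genes were called. At an unadjusted p under 0.05 the count was also 0 of 6. A difference seen at 8 weeks and not at 2 weeks is therefore not shown to have grown. The F test over weeks called 0 of 6 within Con (0.590% of tested genes) and 0 of 6 for NCAC against Con (0%).

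Shares of the summed chains do not depend on how a library is scaled. At 8 weeks Myh1 took 20.9, 18.99, 10.5, 14.4, 11.03, 23.4 and 13.9% of the pool in the 7 CAC libraries, and 7.83 to 10.7% in Con. The CAC shares ranged more than 2-fold, and the lowest lay inside the Con range. The mean was 16.2% ± 4.97 in CAC (SD, n = 7), 9.35% ± 1.04 in Con and 8.13% ± 2.85 in NCAC (SD, n = 5 each). Myh4 took 76.1% ± 5.94 in CAC, 83.9% ± 1.57 in Con and 84.0% ± 5.61 in NCAC. Myh7 took 2.01% ± 0.349, 1.38% ± 0.456 and 1.24% ± 0.467, and Myh2 5.21%, 4.98% and 6.31%. The summed level itself was 15093 ± 2173 TPM in CAC, 14904 ± 873 in Con and 16038 ± 2362 in NCAC.

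By exact two-sided permutation tests, the Myh1 share was 6.81 percentage points higher in CAC than in Con (p = 0.0177, adjusted p = 0.212) and 8.03 points higher than in NCAC (p = 0.0126, adjusted p = 0.212). The Myh4 share differed by -7.81 points from Con (exact permutation p = 0.0164, adjusted p = 0.212) and by -7.92 points from NCAC (p = 0.0467, adjusted p = 0.420). The Myh7 share was 0.625 points higher than in Con (exact permutation p = 0.0240, adjusted p = 0.247) and 0.771 points higher than in NCAC (p = 0.0139, adjusted p = 0.212). None of 72 share tests passed after Benjamini-Hochberg adjustment over all of them, and 8 had an unadjusted p under 0.05, 6 of them in CAC at 8 weeks. The others were the Myh1 share in CAC against NCAC at 4 weeks (12.5% and 9.33%, exact permutation p = 0.0159) and the Myh8 share in NCAC against Con at 6 weeks (exact permutation p = 0.0159). The 6 in CAC at 8 weeks are not independent of each other. Shares of a library add up to the whole, and both comparisons use the same CAC libraries. With 5 against 5 libraries the smallest p such a test can give is 0.00794, and with 7 against 5 it is 0.00126. The ratio of Myh4 to Myh1 was 9.08 ± 1.22 in Con, 11.8 ± 5.64 in NCAC and 5.20 ± 1.92 in CAC at 8 weeks. At 2, 4 and 6 weeks it averaged 9.005, 8.58 and 8.74 in Con, 8.18, 9.02 and 6.41 in NCAC and 8.498, 6.65 and 6.88 in CAC. At 6 weeks the mean NCAC ratio was thus no higher than that of CAC, and the Myh1 share averaged 12.7% in NCAC, 12.4% in CAC and 9.87% in Con.

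**Figure D4:**
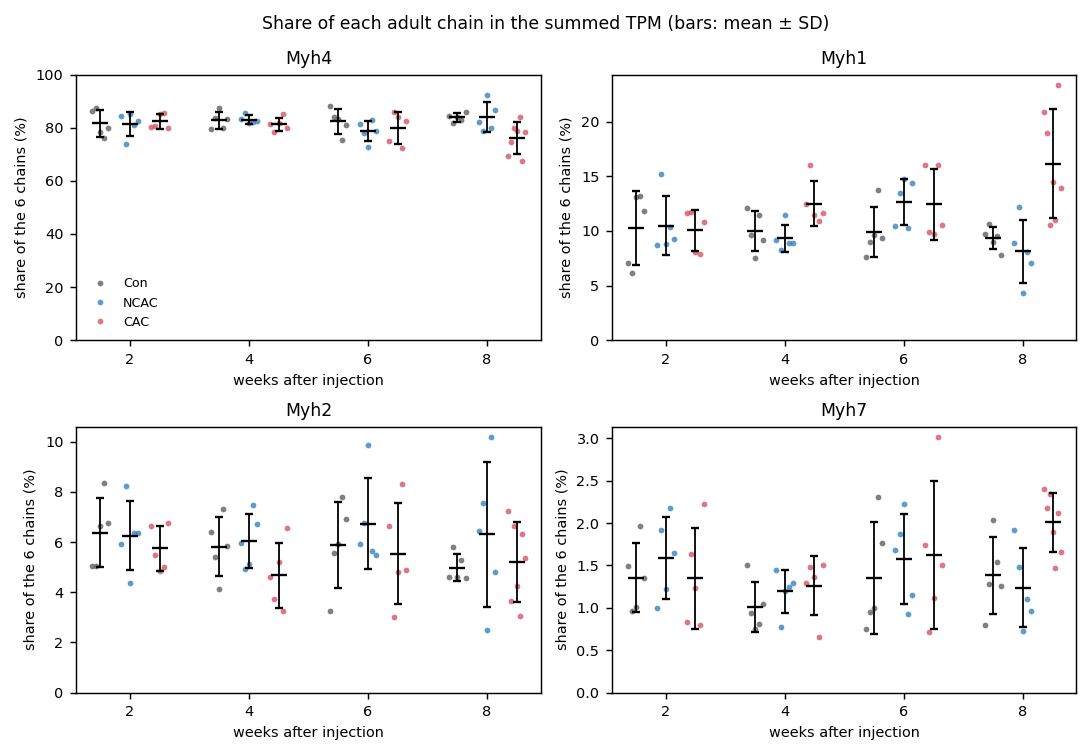
Share of Myh4, Myh1, Myh2 and Myh7 in the summed TPM of the 6 chains (vertical axis, %) in every library against weeks after injection, with bars for the mean ± SD of each group. The 8-week CAC libraries run from 10.5 to 23.4% for Myh1 and from 67.5 to 84.1% for Myh4.

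Within the 62 libraries the chains moved against the bulk chain more than with it. Myh2 and Myh4 had a Spearman rho of -0.42 over the libraries and -0.55 for deviations from group means. Myh1 and Myh4 had -0.11 and -0.31, Myh1 and Myh2 0.19 and 0.47, and Myh1 and Myh7 0.46 and 0.41. These are descriptions, since the points share library totals and, for the first value of each pair, the group differences. The related chains also share sequence: 9.24% of the 100-base stretches of Myh1 transcripts occur in another myosin heavy chain gene, 7.80% for Myh2, 7.71% for Myh7, 3.85% for Myh4, 3.38% for Myh8 and 1.13% for Myh3. How reads from such stretches, or from overlapping antisense genes, were assigned is not given in the sources used here, so small differences between close relatives are uncertain.

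The genes whose level followed each chain most closely differed from chain to chain. For Myh1 they were Lpl (lipoprotein lipase, rho 0.74), Smtnl1 (0.73) and Cd36 (a fatty acid transporter, 0.72). For Myh4 they were Pygm (muscle glycogen phosphorylase, 0.68), Mybpc2 (the fast myosin-binding protein C, 0.64) and Ryr1 (the calcium release channel of the sarcoplasmic reticulum, 0.63). Myh2 was followed by Wfs1 (0.76), Tpm2 (beta-tropomyosin, 0.73) and Got2 (a mitochondrial aminotransferase, 0.73).

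Myh7 was followed far more tightly, by Myh6 (0.95), Atp2a2 (the slow and cardiac calcium pump, 0.94) and Tpm3 (slow tropomyosin, 0.92). Myh6 and Myh7 share 7.71% of the 100-base stretches of Myh7, and the part of shared reads in that likeness was not tested. Myh8 was followed by Myh13 (0.89), then at a distance by Slc2a8 (a glucose transporter, 0.52) and Natd1 (0.51). Myh3 had no close follower, with Hist1h3d (a histone H3 gene) at 0.54, Myom3 (an M-band protein) at 0.52 and Mrm1 at 0.51. For deviations from group means the rho of the first follower was 0.59 for Lpl, 0.77 for Wfs1, 0.73 for Pygm, 0.98 for Myh6, 0.96 for Myh13 and 0.45 for Hist1h3d. Of the other named followers Cd36 fell to 0.50, Slc2a8 to 0.28 and Natd1 to 0.25. Smtnl1, Got2, Atp2a2, Tpm3 and Mrm1 fell by less, and Tpm2, Mybpc2, Ryr1 and Myom3 did not fall.

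Fast fibre partners, the light chains, troponins and calcium handling proteins that work beside Myh4 and Myh1, moved in both directions at 8 weeks in CAC against Con. Over all tested genes of that comparison 65.3% were higher and 5.55% lower as deposited, and 24.9% and 21.01% rescaled, the background for each list count that follows. Of 12 tested, 4 were higher and 5 lower, with a median of -0.03 against 0.36 for all tested genes. On the rescaled values 8 of them were lower and 0 higher. Myl1, a fast light chain, fell from 7736 to 4439 TPM (log2 difference -0.90, adjusted p = 3.57e-05 in limma, rescaled -1.30). Pvalb, the calcium buffer parvalbumin of fast fibres, fell from 15902 to 8545 TPM (-1.07, adjusted p = 6.73e-05, rescaled -1.46). Atp2a1, the fast calcium pump, was higher as deposited at 25433 against 18131 TPM (0.47, adjusted p = 5.13e-05 in limma) but not after rescaling (0.07, adjusted p = 0.570). At 2, 4 and 6 weeks 0, 1 and 4 of the list were higher and 0, 0 and 5 lower, where 0.267, 22.97 and 51.8% of all tested genes were higher and 0.0162, 2.38 and 5.41% lower. Rescaled, 1 was higher and 6 lower at 6 weeks, beside 15.7% and 16.6% of all tested genes, and 0 were called at 2 and 4 weeks.

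Slow fibre partners, which accompany Myh7, gave 6 higher and 0 lower of 12, a smaller share higher than the 65.3% of all tested genes, with a median of 0.33 against 0.36. On the rescaled values 2 were higher and 1 lower, beside 24.9% and 21.01%. Sln, sarcolipin, an inhibitor of the calcium pump, averaged 94.3 ± 83.5 TPM in CAC (SD, n = 7) and 15.1 ± 6.62 in Con (SD, n = 5), a log2 difference of 2.28 (adjusted p = 2.29e-05 in limma, rescaled 1.89). Myoz2, a Z-disc protein of slow fibres, averaged 170.1 and 87.3 TPM (0.93, adjusted p = 0.000122 in limma, rescaled 0.53). Atp2a2 averaged 356 and 241 TPM (0.62, adjusted p = 0.00817 in limma), and rescaled its difference of 0.22 did not pass (adjusted p = 0.379).

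Genes of developing, regenerating or denervated muscle, which could move with Myh3 and Myh8, gave 5 higher and 1 lower of 13 tested, beside 65.3% and 5.55% of all tested genes, with a median of 0.42 against 0.36. Rescaled, 4 were higher and 2 lower, beside 24.9% and 21.01%. Chrna1, the acetylcholine receptor subunit, averaged 44.1 ± 33.1 TPM in CAC and 10.3 ± 1.01 in Con (log2 difference 1.67, adjusted p = 6.66e-07 in limma, rescaled 1.29). Runx1, a transcription factor induced by denervation, averaged 1.40 and 0.295 TPM (0.86, adjusted p = 4.42e-07 in limma, rescaled 0.66). Actc1, the cardiac actin made in fetal muscle, fell from 448 ± 166 to 76.4 ± 103 TPM (-3.61, adjusted p = 2.16e-06 in limma, rescaled -3.98). Myh3 and Myh8 did not pass the threshold against Con at any week.

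Genes of myosin folding and the thick filament gave 9 higher and 2 lower of 15 (65.3% and 5.55% over all tested genes), with the same median as all tested genes, 0.36, and rescaled 2 higher and 3 lower. Trim63, the ubiquitin ligase MuRF1 that acts on thick filament proteins, averaged 1121 ± 1215 TPM in CAC and 151 ± 11.1 in Con (log2 difference 2.03, adjusted p = 0.000185 in limma, rescaled 1.63). Its SD in CAC exceeded its mean. Hspb1, a small heat shock protein, averaged 403 and 211 TPM (0.93, adjusted p = 1.41e-05 in limma, rescaled 0.54). Unc45b, the myosin chaperone, averaged 170 and 121 TPM (0.49, adjusted p = 5.21e-07 in limma) but differed by 0.10 after rescaling (adjusted p = 0.301).

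Regulators of fibre type gave 20 higher and 2 lower of 34 (65.3% and 5.55% over all tested genes), with the background median of 0.36, and rescaled 3 higher and 6 lower. Ppard, a nuclear receptor of oxidative metabolism, was higher by 0.71 (adjusted p = 1.27e-06 in limma, rescaled 0.33, adjusted p = 0.00712). Hdac5, a repressor of MEF2 factors, was higher by 0.59 (adjusted p = 9.57e-06 in limma, rescaled 0.21, adjusted p = 0.0267). Rxra, a partner of nuclear receptors, was higher by 0.61 (adjusted p = 5.87e-06 in limma), and by 0.22 rescaled, which did not pass (adjusted p = 0.0653).

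Other myosin heavy chains outside the skeletal set gave 4 higher and 0 lower of 7 tested against Con (65.3% and 5.55% over all tested genes), with a median of 0.51 against 0.36, and rescaled 1 higher and 0 lower. Myh9, a nonmuscle chain, averaged 21.6 and 9.64 TPM (log2 difference 1.02, adjusted p = 1.49e-07 in limma, rescaled 0.65). The nonmuscle chains Myh10 (0.52, adjusted p = 0.00840 in limma) and Myh14 (0.42, adjusted p = 0.0105) were higher as deposited, but rescaled they differed by 0.17 and 0.05 and did not pass. In NCAC against Con at 8 weeks limma called 0 genes of any of these lists.

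Markers of other cell types were counted between the same 8-week groups. Of all tested genes 65.3% were higher and 5.55% lower as deposited, and 24.9% and 21.01% rescaled. The sums are of deposited values, where the median of all tested genes was itself 0.36 higher in CAC. Of 9 macrophage markers 9 were higher in CAC than in Con (rescaled 7 of 9), and their sum ran from 272 to 848 TPM in CAC against 86.8 to 311 in Con. Of 4 endothelial markers 3 were higher and 1 lower (rescaled 2 and 1), with sums of 108 to 178 against 64.7 to 97.1 TPM. For 4 smooth muscle markers, 3 of them higher (rescaled 1), the sums were 86.9 to 299 against 54.1 to 83.8 TPM. Of 4 fibroblast markers 2 were higher (rescaled 2), with sums of 407 to 990.2 against 278 to 424 TPM, and of 5 adipocyte markers 2 were higher (rescaled 2, and 1 lower), with sums of 933 to 2792 against 645 to 1550.0 TPM.

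The remaining marker lists stand beside the same shares of all tested genes, and the muscle fibre markers moved in both directions. The 1 lymphocyte marker tested, Ighm, was lower on both scales, and the sum of 5 such markers was 4.21 to 49.3 against 56.4 to 114 TPM. Of 6 muscle fibre markers 2 were higher and 3 lower (rescaled 1 and 3). Of 5 Schwann cell markers 1 was higher (rescaled 1), and of 4 satellite cell markers tested 1 was higher (rescaled 0). Of 4 erythroid and 4 tendon markers limma called 0, and the erythroid sum ran from 85.0 to 12723 TPM in CAC. Melanocyte markers other than Mitf averaged under 1 TPM in each group, and Tyr was listed at 0 in all Con libraries of 8 weeks. The part of these cell types in the differences of Myh1, Myh4 and Myh7 was not tested. With the transcripts of the mitochondrial genome left out and TPM rescaled, Myh1 was higher in CAC by 0.55 against Con (adjusted p = 0.0103 in limma) and by 0.76 against NCAC (adjusted p = 0.000611), Myh4 differed from Con by -0.33 (adjusted p = 0.0116), and Myh7 differed from Con by 0.40 (adjusted p = 0.197).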

How the data were processed

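Gastrocnemius RNA was made into stranded mRNA libraries (TruSeq) and sequenced on a NovaSeq instrument, per the labels' protocols. The authors deposited TPM values per gene symbol for 62 libraries. The build is mm10 per the submitters' processing notes; no aligner, counter, annotation or strand setting is given in the sources used here. Groups came from the sample descriptions, since the treatment field names cachectic cells for every sample.

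Genes with at least 1 TPM in at least 5 libraries were tested in limma 3.58.1 (R 4.3.3) on log2(TPM + 1), with 12 group means fitted to all libraries, a mean-variance trend and Benjamini-Hochberg adjustment over 12364 genes at 0.05. A fold change on this scale understates the change of low genes. Shares were tested with exact permutation tests (Python 3.11.15, numpy 2.4.6, pandas 2.3.3, scipy 1.17.1), adjusted over 72 tests. The fits were tested on simulated data.

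Reads were estimated from the steps of low TPM values with GENCODE M21 exon lengths. Between 79.9 and 82.2% of values worth 1 to 20 reads came within 0.05 of a whole number.

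Alternatives were a pseudocount of 0.1, no filter, median-ratio scaling (libraries rescaled by the median ratio of genes at 1 TPM or more in every library), the mitochondrial genome left out, a replicate block, a fit of the compared groups alone, and each replicate left out. Leaving out libraries with Myh8 under 1 TPM was added after seeing the data. The members and lists were chosen with earlier results of these data known.

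Named genes were the 6 chains, the 3 tested genes of highest Spearman rho with each chain (clone names passed over), and up to 3 called genes of lowest adjusted p per pathway list in CAC against Con at 8 weeks. Ighm, Mitf and Tyr were named after their values were seen. Promoter windows came from RefSeq, and all 6 chains matched by symbol. Protein sequences were not used here.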

Additional observations from a re-analysis of the deposited data

Results flagged for a closer look

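Among 144 groups of 5 or 7 libraries (each chain's level and share in each group and week), 16 held a library that stood further from its nearest neighbour than Dixon's 95% limit. Chance flags about 1 in 20 groups.

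The Myh8 levels of 4 libraries stood apart. The lowest were CAC replicate 4 at 4 weeks, at 0.474 TPM where the next was 47.6, and NCAC replicate 2 at 6 weeks, at 0.457 TPM where the next was 41.2. The highest were NCAC replicate 5 at 4 weeks, at 85.7 TPM where the next was 50.3, and Con replicate 4 at 8 weeks, at 90.9 TPM where the next was 52.8. The Myh8 shares of the same 4 libraries stood apart too, at 0.00261, 0.00318, 0.588 and 0.656% of the summed chains. The high shares of NCAC replicate 5 and Con replicate 4 lay above the gap that Myh8 shares left over all libraries.

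For Myh1 the level of CAC replicate 2 at 4 weeks was 2663 TPM, with the next library at 1990.35, and its Myh1 share was 16.0%, with the next at 12.4%. The Myh1 share was also apart in NCAC replicate 2 at 2 weeks (15.2%, the next 10.36%) and NCAC replicate 3 at 4 weeks (11.4%, the next 9.15%). NCAC replicate 2 at 2 weeks was likewise the library with the lowest Myh4 of its group, 8705 TPM where the next was 12132.

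Myh2 was low in NCAC replicate 3 at 2 weeks (645 TPM, the next 931), and its share was high in NCAC replicate 3 at 6 weeks (9.88%, the next 6.74%). The Myh7 share was low in CAC replicate 4 at 4 weeks (0.655%, the next 1.296%), the library that also had low Myh8.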

How the results depend on the processing

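Of 444 recomputed chain differences under alternatives that keep all replicates or leave out the low Myh8 libraries, 418 kept their side of the threshold (26 of them, none called, changed sign), 19 lost the call, 5 gained one and 2 reversed. Of 744 with 1 replicate left out, 710 kept it (58 of them, none called, changed sign), 29 lost the call and 5 gained one. All 120 and 744 recomputed share tests, and all 90 and 612 F tests over weeks, stayed past their threshold or short of it as before, and 0 were called. The cause of the changes below was not tested.

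With median-ratio scaling, Myh1 in CAC against Con at 8 weeks was 0.35, Myh4 -0.53 and Myh7 0.19. In CAC against NCAC at 8 weeks Myh2 was -0.69, Myh4 -0.65, Myh7 0.26 and Myh8 1.69, at 4 weeks Myh1 was 0.35, and at 6 weeks Myh4 turned to -0.12. With the mitochondrial genome left out, CAC against Con at 8 weeks gave -0.33 for Myh4 (now called) and 0.40 for Myh7 (adjusted p = 0.197 in limma). CAC against NCAC then gave 0.46 for Myh1 at 4 weeks, 0.057 for Myh4 at 6 weeks, and at 8 weeks -0.40 for Myh4 (now called), 0.51 for Myh7 and 2.01 for Myh8. Without the filter the differences did not move but were no longer called for Myh7 in CAC against Con (0.59, adjusted p = 0.0681 in limma), and in CAC against NCAC for Myh1 at 4 weeks (0.55), Myh4 at 6 weeks (0.30) and Myh8 at 8 weeks (2.07). A fit of the compared groups alone lost Myh4 at 6 weeks (0.30) and Myh8 at 8 weeks (2.07) against NCAC. Pseudocount 0.1 gave 2.47 for that Myh8 difference (adjusted p = 0.0536 in limma), and leaving out the 7 low libraries gave -0.11.

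The replicate block gave 0.61 for Myh7 against Con at 8 weeks and 1.84 for Myh8 against NCAC at 8 weeks, both short of the threshold, and changed no other chain's call. Of 60 same-numbered pairs 16 correlated above 0.1, with a range of -0.299 to 0.295. No correlations of differently numbered pairs are given here, so these values do not settle whether the numbers pair the libraries.

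Leaving out each replicate in turn gave 0.39 to 0.75 for Myh7 against Con at 8 weeks. Against NCAC it gave 0.45 to 0.61 for Myh1 at 4 weeks (lost without CAC replicate 2 or 4 or any NCAC replicate) and 0.24 to 0.40 for Myh4 at 6 weeks (lost without CAC replicate 2, 3 or 5 or NCAC replicate 3 or 4). At 8 weeks it gave -0.51 to -0.12 for Myh2, -0.30 to -0.13 for Myh4 (gained without CAC replicate 4 or 5 or NCAC replicate 1 or 4), 0.57 to 0.80 for Myh7 (lost without NCAC replicate 3 or 4) and 1.25 to 2.69 for Myh8. Myh1 at 8 weeks stayed called throughout, at 0.65 to 0.87 against Con and 0.79 to 1.07 against NCAC.

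The background counts moved by more than 1.5 times as follows. Called genes in CAC against Con went from 35 to 2 (compared groups alone) at 2 weeks, from 3134 to 1909 (rescaled), 1691 (no mitochondrial genome) and 1160.0 (compared groups alone) at 4 weeks, from 7069 to 3994 (rescaled) and 4600.0 (no mitochondrial genome) at 6 weeks, and from 8755 to 5671 (rescaled) at 8 weeks. In CAC against NCAC they went from 145 to 55, 52 and 94 at 2 weeks in the same order of settings, from 2435 to 1018, 768 and 431 at 4 weeks (1585 without the filter), and, rescaled, from 8500 to 5167 at 6 weeks and from 8939 to 5653 at 8 weeks. NCAC against Con went from 0 to 1 at 2 weeks (no filter, and compared groups alone) and to 2 at 8 weeks (no filter). With 1 replicate out the counts ranged from 7 to 114, 758 to 3661, 5523 to 7186 and 8090 to 9002 against Con and from 14 to 417, 274 to 3313, 7717 to 8526 and 8357 to 9141 against NCAC. NCAC against Con ranged from 0 to 18 at 4 weeks. The 4-week lows of 758 and 274 were without CAC replicate 2. Depth limits Myh3 most, with a median of about 529 reads and a counting error of 9.67% in its lowest library. Myh8 had a median of about 12393 reads, and its counting error of 11.04% is that of its lowest library.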
